A study of Mus musculus with 5 samples.

Results

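The 33 genes described here detect viral or misplaced RNA, relay that signal to interferon, or are induced by interferon. They were taken from a fixed list of symbols, all 33 were found among the 22869 gene symbols of the count table, and all 33 passed the filter on low counts, which left 14572 genes for testing. RNA was sequenced from intervillus cells, the proliferating epithelium between the villi, captured by laser from the proximal jejunum of mice at postnatal day 0. The 3 control libraries, numbered 1 to 3, carry the genotype label Dnmt1 L/+ and came from Ki67-positive areas. The 2 mutant libraries, numbered 4 and 6, carry the label Dnmt1 L/L; VillinCre and came from Ki67-negative areas; the Villin promoter drives Cre in the gut epithelium, so other cells of the same areas keep Dnmt1, the enzyme that copies DNA methylation after replication. The control label names no Cre, and no label says whether each library came from its own mouse, so the spread that p-values measure is that between these libraries and may be technical.

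Cells recognise foreign RNA with the helicase sensors RIG-I (Ddx58) and MDA5 (Ifih1), which signal through the mitochondrial adaptor MAVS, and with the endosomal receptor TLR3. The kinase TBK1 then activates the transcription factors IRF3 and IRF7, which switch on interferon genes. Secreted type I interferon binds the receptor made of IFNAR1 and IFNAR2, and a complex that contains STAT2 and IRF9 turns on antiviral effector genes through a DNA element called the interferon-stimulated response element. In other systems, loss of DNA methylation is known to release endogenous retroviral RNA that these sensors can detect. Retroviral elements themselves were not analysed here.

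The count tables held between 8730268 reads (mutant 4) and 13356901 reads (control 1) with 1 row per gene. Dnmt1 had 2240, 2163 and 1351 counts in the controls against 427 and 525 in the mutants. Mki67, the gene of the marker by which the areas were chosen, fell as well (log2 fold change -0.84 ± 0.15, SE). Xist, the RNA of the inactive X chromosome, had 66, 72 and 42 counts in the controls against 10179 and 8277 in the mutants. Loss of Dnmt1, the choice of areas by Ki67 and this sex-linked difference cannot be told apart in any value below. In such bulk samples, fewer cells of a type and less RNA per cell cannot be told apart either. The epithelial markers Epcam, Cdh1 and Vil1 were abundant in all 5 libraries, and the 12 epithelial markers summed to 4812 to 4962 CPM in the controls against 4622 to 4728 CPM in the mutants. Among those 12, Krt20 (55.5 ± 13.0 and 164 ± 0.715 CPM) and Krt18 (177 ± 16.3 and 307 ± 39.9 CPM) rose, and Cdx2, a transcription factor of intestinal identity, fell (54.4 ± 10.8 and 28.3 ± 0.0483 CPM).

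Of the 33 genes, 1 passed the test. In edgeR's quasi-likelihood test with Benjamini-Hochberg adjustment, 0 of the 33 genes were called higher in the mutants at an adjusted p under 0.05, where 6.11% of all genes tested were, and 1, Mx2, was called lower, where 4.17% were (10.3% in either direction). At an unadjusted p under 0.05, 5 of the 33 were higher (13.6% of all genes) and 4 lower (12.1%), or 27.3% of the 33 against 25.6% of all genes in either direction. The median log2 fold change, mutant over control, was 0.091 over the 33 genes and -0.0072 over all genes tested. With no filter on low counts, as an alternative, the same test called Isg15 and Tlr3 higher (6.53% of all genes) and Mx2, Mx1 and Ifit1 lower (4.59%). The edgeR exact test called Isg20 higher (8.21% of all genes) and Mx1 and Mx2 lower (5.57%).

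**Figure D1:**
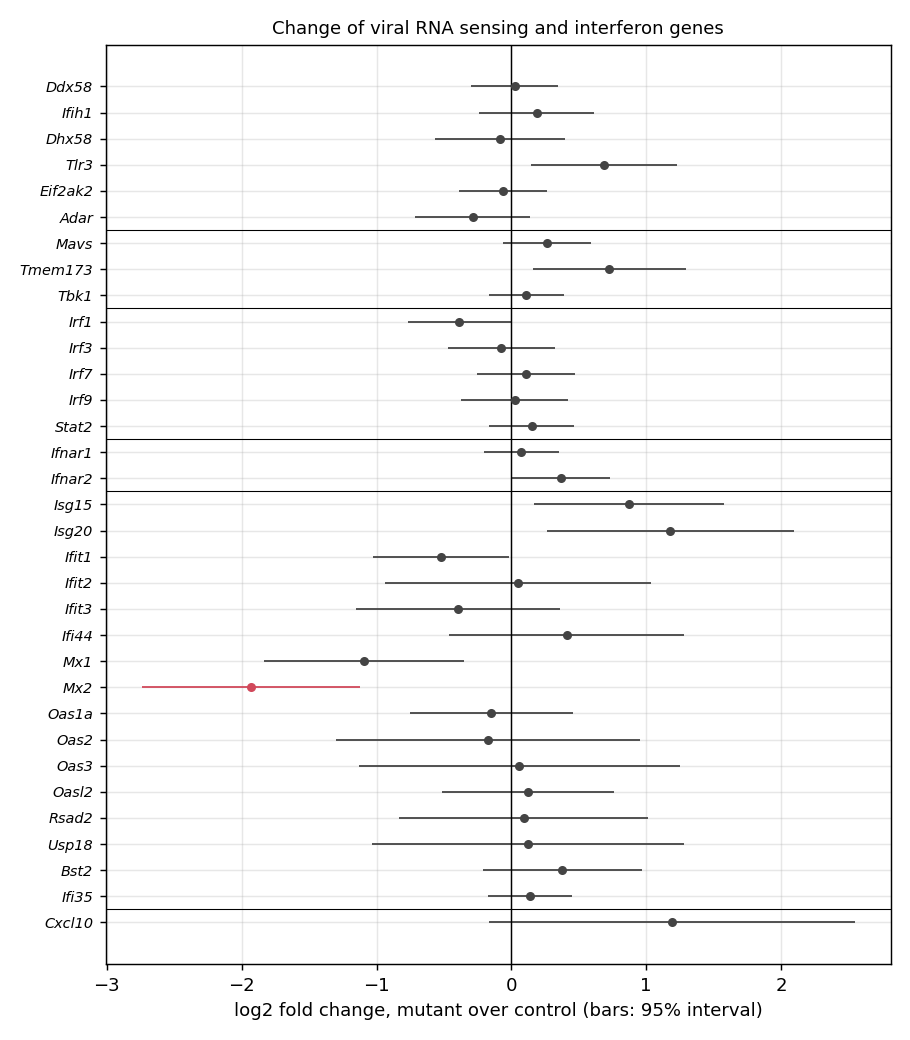
Log2 fold change, mutant over control, of the 33 genes from the edgeR fit over all transcripts, with bars for the 95% interval and horizontal lines between the roles (sensors, adaptors and kinase, transcription factors, receptors, effectors, chemokine). The red point is Mx2, the 1 gene called at an adjusted p under 0.05; 18 of the 33 intervals lie between -1 and 1.

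The RNA sensors were present in every library. By the authors' deposited FPKM, which corrects for transcript length, the highest of the 6 was Eif2ak2, the kinase PKR that blocks translation on binding double-stranded RNA, at 22.8 ± 2.86 FPKM in controls (SD, n = 3) and 23.2 ± 1.35 FPKM in mutants (SD, n = 2). Ddx58 followed at 13.7 ± 1.71 and 15.5 ± 0.834 FPKM. Ifih1, at 11.3 ± 2.03 and 13.2 ± 3.64 FPKM, lay within the spread of Ddx58. Adar, which edits double-stranded RNA and so hides it from MDA5, Dhx58, the helicase LGP2 that tunes both other helicases, and Tlr3 were lower, with Tlr3 at 2.19 ± 0.356 and 3.32 ± 1.24 FPKM.

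None of the 6 sensors was called higher or lower by this test. Ddx58 had CPM (counts relative to the TMM-adjusted size of each library) of 72.4, 70.2 and 94.1 in the controls against 78.6 and 82.1 in the mutants. Both mutants lay inside the control range, and the log2 fold change was 0.03 with a 95% interval of -0.30 to 0.35. Ifih1 had 61.6, 59.9 and 91.4 CPM in the controls against 95.5 and 66.2 CPM in the mutants, so that mutant 4 stood beside control 3 and mutant 6 beside controls 1 and 2 (interval -0.24 to 0.61). Eif2ak2 had 103, 99.5 and 136 CPM against 112 and 105 CPM (interval -0.39 to 0.27). Here again control 3 was highest and the groups overlapped. Dhx58 had 13.4, 12.3 and 15.6 CPM against 15.1 and 10.9 CPM. Adar had 56.3, 38.0 and 57.1 CPM in controls against 48.2 and 34.6 CPM in mutants, with 1 mutant inside the control range and 1 below it (log2 fold change -0.29 ± 0.20, SE).

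Tlr3 was the sensor with the widest difference. Counts of Tlr3 were 163, 170 and 183 in the controls against 241 and 167 in the mutants, which gave 8.97, 10.1 and 12.9 CPM against 21.3 and 12.9 CPM. Mutant 4 stood well above the controls, and mutant 6 was level with control 3. The log2 fold change was 0.68 ± 0.25 (edgeR adjusted p = 0.103). It passed with no filter on low counts (edgeR adjusted p = 0.0364) and with mutant 4 alone (log2 fold change 1.00, edgeR adjusted p = 0.0490), a fit in which 3.56% of all genes were called higher. With mutant 6 alone the log2 fold change of Tlr3 was 0.28.

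The 3 adaptor and kinase genes, Tmem173, Mavs and Tbk1, had both mutants above all controls by CPM, and 0 of the 3 were called. Of all genes tested 21.7% share that position. Over the 33 members, 7 had both mutants above all controls and 3 had both below, where 21.8% of all genes did. Tmem173, which encodes STING, the adaptor of the cytosolic DNA pathway, had 85, 105 and 90 counts in the controls against 110 and 120 in the mutants. Its level was 5.74 ± 0.923 CPM in controls against 9.49 ± 0.334 CPM in mutants. The log2 fold change of Tmem173 was 0.73 ± 0.26 and was not called (edgeR adjusted p = 0.0985). Leaving out any 1 library moved this value between 0.60 and 0.80. Mavs was 36.1 ± 1.94 CPM in controls against 43.4 ± 6.19 CPM in mutants (log2 fold change 0.26 ± 0.15). Tbk1 was 73.0 ± 4.96 and 78.9 ± 0.548 CPM, a gap of about the control SD (0.11 ± 0.13). In Tbk1, control 3 at 78.4 CPM was nearly level with mutant 4 at 78.5 CPM. On the deposited FPKM the groups of Mavs and of Tbk1 overlapped, and those of Tmem173 did not.

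**Figure D2:**
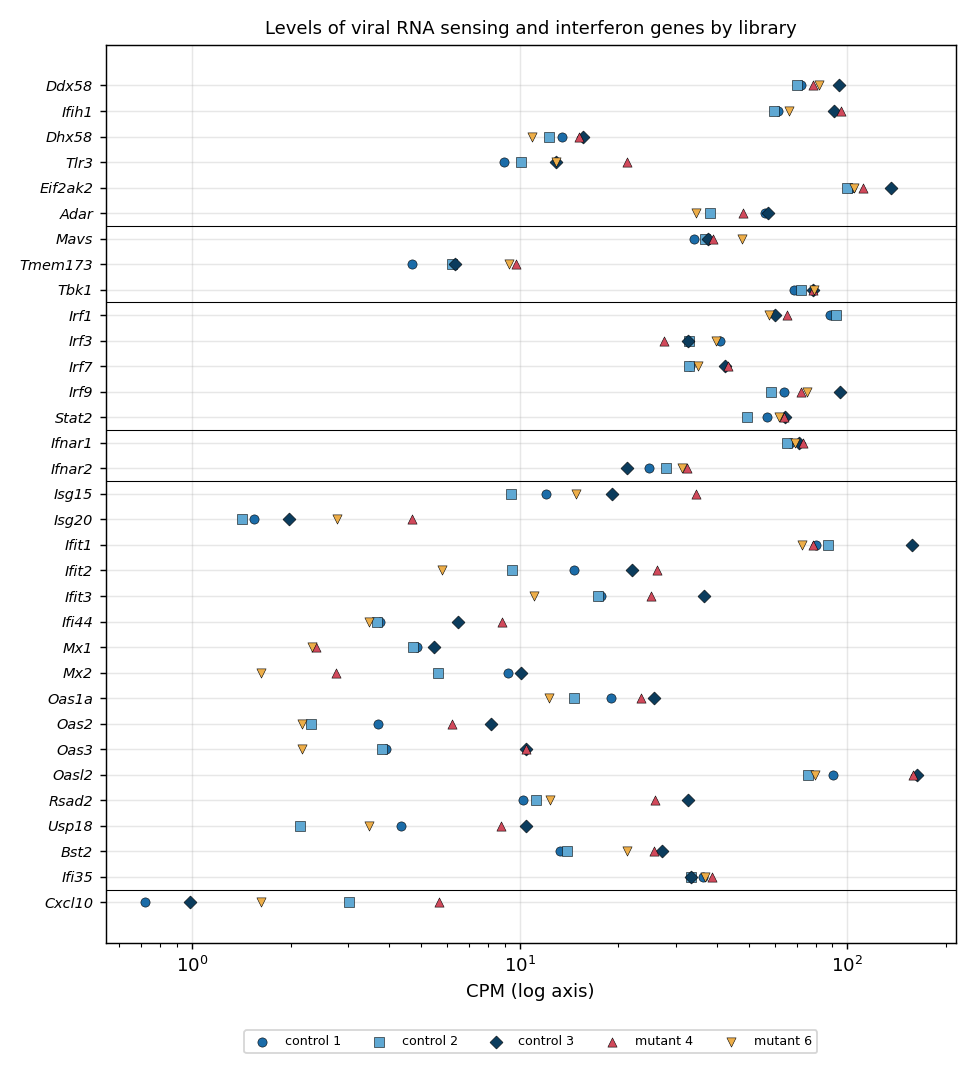
CPM of each of the 33 genes in the 5 libraries on a log axis, with the roles separated by horizontal lines. Most sensors, adaptors, transcription factors and receptors vary less among libraries than most effectors, though Tlr3 runs from 8.97 to 21.3 CPM and Tmem173 from 4.68 to 9.73 CPM. Most effectors spread widely within each group, with control 3 and mutant 4 to the right. Mx1 and Mx2 have both mutants left of all controls.

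Of the 5 transcription factors 0 were called. By FPKM, Irf1, which can induce interferon and antigen presentation genes directly, was the highest in controls, at 36.8 ± 9.70 FPKM in controls against 27.8 ± 0.713 FPKM in mutants. Irf9, at 27.1 ± 3.64 and 25.7 ± 4.56 FPKM, overlapped with it. Irf7, the amplifier of the interferon response, was 18.3 ± 0.827 and 20.1 ± 2.23 FPKM, Irf3 15.0 ± 3.78 and 16.3 ± 2.90 FPKM, and Stat2 12.1 ± 1.68 and 12.4 ± 0.315 FPKM. Irf1 had 88.4, 92.6 and 60.0 CPM in controls against 65.4 and 57.7 CPM in mutants, so control 3 stood with the mutants. Its log2 fold change was -0.39 ± 0.18 (edgeR adjusted p = 0.190), and without control 3 it was called lower at -0.56 (edgeR adjusted p = 0.0205), in a fit that called 4.43% of all genes lower. Irf7, itself an interferon target, had 601, 557 and 603 counts against 488 and 453, which scaled to 36.2 ± 5.45 and 39.1 ± 5.81 CPM, with mutant 4 near control 3 and mutant 6 near controls 1 and 2. Irf3 (log2 fold change -0.07 ± 0.18), Irf9 (0.03 ± 0.18) and Stat2 (0.15 ± 0.15) had groups that overlapped.

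Both chains of the type I interferon receptor were expressed. Ifnar1 was 67.9 ± 3.02 CPM in controls against 71.5 ± 2.88 CPM in mutants (log2 fold change 0.07, 95% interval -0.20 to 0.35). Ifnar2 had 24.8, 28.1 and 21.3 CPM in controls against 32.4 and 31.4 CPM in mutants. The groups of Ifnar2 did not overlap, and its log2 fold change of 0.36 ± 0.17 was not called (edgeR adjusted p = 0.193).

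Transcripts of the interferons themselves were near the limit of counting. Of 21 type I, II and III interferon genes, 13 had 0 counts in all 5 libraries, where a floor of 3 counts allows up to 0.165 to 0.265 CPM in a library. Ifnb1 had 1 count in all. Leaving out Ifnk, the other 20 genes together had 8 counts in the 3 controls and 12 in the 2 mutants. Of those 12 counts, 5 were Ifng and 4 Ifnz, all in mutant 4. Ifnk, interferon kappa, was the 1 ligand above the filter, with 55, 58 and 44 counts in controls against 11 and 25 in mutants (-1.12 ± 0.45 on the log2 scale, edgeR adjusted p = 0.135). Ligand copies of the Ifna family are nearly identical and may share reads.

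Mx2 was the 1 member that fell. The Mx genes encode dynamin-like GTPases that block virus replication, and many laboratory mouse strains carry defective copies of them; the labels used here name no strain. Mx2 had 167, 95 and 143 counts in the controls against 31 and 21 in the mutants, or 9.19, 5.62 and 10.1 CPM against 2.74 and 1.62 CPM. Every control was above both mutants. The log2 fold change was -1.93 ± 0.38 (95% interval -2.74 to -1.12, edgeR adjusted p = 0.00542). With mutant 4 alone it was -1.60 and missed the threshold (edgeR adjusted p = 0.0520), in a fit that called 1.37% of all genes lower and 4.93% in either direction. With mutant 6 alone it was -2.35 (edgeR adjusted p = 0.0112), in a fit that called 1.11% lower.

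Its neighbour in function, Mx1, had 88, 80 and 78 counts in controls against 27 and 30 in mutants. The 5.02 ± 0.409 CPM of the controls and the 2.35 ± 0.0522 CPM of the mutants did not overlap on the counts, and the log2 fold change was -1.09 ± 0.34 (edgeR adjusted p = 0.0605). It stayed between -1.12 and -1.02 when any 1 library was left out. On the deposited FPKM the groups overlapped: Mx1 had 1.43, 1.03 and 1.58 FPKM in the controls against 0.631 and 1.19 FPKM in the mutants, and the log2 fold change was -0.31 on the log2(FPKM + 1) scale and -0.56 with a pseudocount of 0.1. Mx1 and Mx2 are similar in sequence and may share reads.

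Ifit1, a cap-binding inhibitor of viral RNA translation, was the third effector with both mutants below all controls, a position that 21.8% of all genes share. Its counts were 1458, 1478 and 2240 in controls against 887 and 941 in mutants, and its CPM were 80.3, 87.5 and 158 against 78.5 and 72.6. The mutants were close to controls 1 and 2, and control 3 stood apart. The log2 fold change of -0.52 ± 0.23 was not called (edgeR adjusted p = 0.179), and leaving out any 1 library moved it between -0.70 and -0.15.

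Isg15 and Isg20 had higher means in the mutants, and neither was called. Isg15, a ubiquitin-like protein that is attached to other proteins during infection, had 219, 159 and 271 counts in controls against 391 and 193 in mutants, or 12.1, 9.41 and 19.1 CPM against 34.6 and 14.9 CPM. Mutant 4 was above all controls and mutant 6 was within their range. The log2 fold change was 0.87 ± 0.33 (edgeR adjusted p = 0.111). With mutant 4 alone Isg15 was called higher at 1.36 (edgeR adjusted p = 0.0150), with mutant 6 alone it was 0.14, and without control 3 it was called higher at 1.20 (edgeR adjusted p = 0.0226, in a fit that called 6.41% of all genes higher). Isg20, an exonuclease that degrades viral RNA, had 28, 24 and 28 counts in controls against 53 and 36 in mutants (1.18 ± 0.43, edgeR adjusted p = 0.0975).

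In 11 of the 16 effectors the groups overlapped, and most effectors shared an order of the libraries within groups. In 15 of the 16 control 3 was the highest control and mutant 4 was above mutant 6, and Ifi35 was the exception. Of all genes tested 18.2% had that order, and 9 of the 16 members that are neither effectors nor Cxcl10 had it. The order asks for no minimum difference: in Mx1 it rests on 2.39 CPM in mutant 4 against 2.31 CPM in mutant 6. The 15 also include genes whose groups did not overlap, namely Mx1, Mx2 and Ifit1 (mutants lower) and Isg20 (mutants higher). Oasl2, a synthetase-like protein of the OAS family, had 90.3, 75.7 and 163 CPM in controls against 159 and 79.9 CPM in mutants. Rsad2, which encodes the broad antiviral enzyme viperin, had 10.2, 11.2 and 32.6 CPM against 25.9 and 12.3 CPM. In each, control 3 and mutant 4 formed a high pair and the other 3 libraries a low set, across genotypes. Oas3, which makes the second messenger that activates RNase L, had 3.91, 3.79 and 10.4 CPM against 10.4 and 2.16 CPM. Usp18, the protease that removes Isg15 and dampens interferon signalling, had 4.35, 2.13 and 10.4 CPM against 8.76 and 3.47 CPM. Ifit2 had 14.7, 9.47 and 22.0 CPM against 26.2 and 5.79 CPM. Its 2 mutants therefore bracketed the controls, and its 95% interval ran from -0.94 to 1.04.

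**Figure D3:**
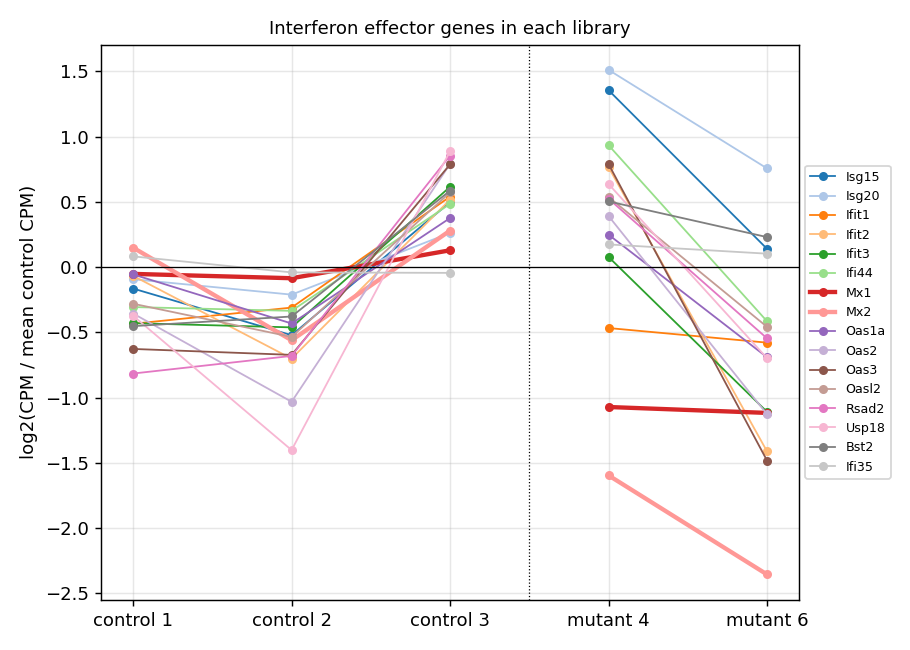
Level of each of the 16 effectors in each library as the log2 ratio of its CPM to its mean CPM in the 3 controls; each line joins the points of 1 gene within a group and implies no order of the libraries. Most genes are high in control 3 and mutant 4 and low in controls 1 and 2 and mutant 6, while Mx1 and Mx2 (thick lines) are below all controls in both mutants.

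Of the remaining effectors, 5 repeated this order. Ifit3 (17.7, 17.3 and 36.5 CPM against 25.1 and 11.0 CPM) has a near-identical copy in the genome with which it may share reads. Oas1a (19.0, 14.7 and 25.7 CPM against 23.5 and 12.3 CPM) belongs to a cluster of similar genes with the same limit. Oas2 had 67, 39 and 116 counts in controls against 70 and 28 in mutants, and Ifi44 had 68, 62 and 92 counts against 100 and 45. Bst2, tetherin, which holds budding virus at the cell surface, had 13.3, 14.0 and 27.2 CPM in controls against 25.7 and 21.3 CPM in mutants. Bst2 was called higher without control 3 (log2 fold change 0.79, edgeR adjusted p = 0.0225). Ifi35, at 34.3 ± 1.73 and 37.7 ± 1.31 CPM, did not, and varied least of the effectors among controls. Cxcl10, a chemokine that attracts T cells, had 13, 51 and 14 counts in controls against 64 and 21 in mutants, with control 2 rather than control 3 as the highest control (log2 fold change 1.19 ± 0.63, edgeR adjusted p = 0.250).

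The spread within groups set what could be seen. The highest control was 2.04 times the lowest in the median effector and 1.32 times in the median of all genes tested. The median ratio of mutant 4 to mutant 6 was 2.05 over the effectors and 0.995 over all genes. Summed over the 16 effectors, the controls had 325, 296 and 570 CPM and the mutants 482 and 285 CPM. The median log2 fold change of the effectors was 0.075 with all libraries. It was 0.49 without control 3, -0.10 without control 1 and -0.18 without control 2. With mutant 4 alone it was 0.52, with mutant 6 alone -0.63, and with limma-voom on all libraries -0.018. Its sign therefore depended on which control or mutant library was left out, and on the method. Control 3 was the shallowest control and mutant 4 the shallowest mutant (10530200 and 8730268 reads). Mutant 6, in which most effectors were low, had 10260760 reads and so was shallower than control 3. The part of depth in the pattern was not tested. Marker sums of other cell types were set beside it. The 8 endothelial markers summed to 172, 180 and 206 CPM in the controls and to 242 and 214 CPM in the mutants, and the 11 mesenchymal markers to 1188, 1296 and 1300.1 CPM and to 1959 and 1827 CPM. In both sums control 3 was the highest control and mutant 4 was above mutant 6, but the mesenchymal sums of controls 2 and 3 were nearly level. Gene by gene, control 3 was the highest control in 4 of 11 mesenchymal and 5 of 8 endothelial markers. It was the highest in 15 of 16 effectors and in 33.7% of all genes tested. The 15 immune markers summed to 214, 233 and 167 CPM and to 367 and 351 CPM, with control 3 lowest. Of these sums, the macrophage gene Csf1r alone gave 61.1, 70.1 and 41.4 CPM in the controls and 175 and 160 CPM in the mutants. The part of these other cell types in the pattern was not tested.

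Many interferon-induced genes carry the response element upstream. Upstream DNA is printed for 4 effectors that share the library order, chosen because each holds a match. Each line gives a stretch of 100 bases upstream of the annotated transcription start, ending 20 (Isg15), 30 (Ifit1), 80 (Ifit3) or 50 (Rsad2) bases before it, 5′ to 3′ on the gene's own strand, from RefSeq on GRCm38.p6, a later build than the mm9 named in the submitters' processing notes. Capitals mark every match of the response element core, searched on both strands as 2 copies of GAAA with any 2 bases between them (2 copies of TTTC on the other strand).
Isg15, chr4:156200839-156200938, minus strand: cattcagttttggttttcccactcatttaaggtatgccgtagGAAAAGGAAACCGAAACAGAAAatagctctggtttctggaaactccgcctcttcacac
Ifit1, chr19:34640759-34640858, plus strand: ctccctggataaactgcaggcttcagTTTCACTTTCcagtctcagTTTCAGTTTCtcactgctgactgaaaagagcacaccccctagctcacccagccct
Ifit3, chr19:34583349-34583448, plus strand: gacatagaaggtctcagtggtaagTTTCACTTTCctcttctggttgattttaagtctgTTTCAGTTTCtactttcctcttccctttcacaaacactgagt
Rsad2, chr12:26456503-26456602, minus strand: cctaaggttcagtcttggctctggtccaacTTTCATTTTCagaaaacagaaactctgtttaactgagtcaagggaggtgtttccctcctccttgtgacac

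Isg15 has 3 overlapping matches in 1 run, Ifit1 and Ifit3 have 2 separate matches each, and Rsad2 has 1. Windows of 300 bases, from 250 bases before the annotated start to 50 after it, were found for 27 of the 33 genes. Dhx58, Tmem173, Mx1, Mx2, Oas2 and Usp18 had no window. A match was present for 12 of the 27 (44.4%), and for 3.99% of all 27025 genes with a window. In the sensors Ddx58, Eif2ak2 and Ifih1 the only match lay after the start and not upstream of it. Of the 12 effectors with a window 7 had a match, and 0 of the 2 adaptor and kinase genes (Mavs and Tbk1) and 0 of the 2 receptor genes did. The effectors without a match were Oasl2, Ifit2, Ifi44, Isg20 and Ifi35, and of these all but Ifi35 share the library order. A STAT-type site, TTCNNNGAA, which reads the same on both strands, was present for 10 of the 27 genes (37.0%) and for 9.55% of all genes; in 1 window, that of Bst2, it overlapped with a match of the paired GAAA. These matches describe the letters in the windows and no binding was measured.

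Genes of the same pathway outside the 33 were described from further lists, chosen by function. Of 31 other sensing and signalling genes, among them Jak1, Tyk2, the interferon gamma receptor and the adaptors MyD88 and TRIF (Ticam1), 0 were called (10.3% of all genes). The edgeR unadjusted p was under 0.05 in 3 (9.68%, against 25.6% of all genes), and DESeq2 and limma-voom called 1 each. Ifngr2, the highest of them by FPKM, was 62.5 ± 10.9 FPKM in controls against 71.2 ± 9.56 FPKM in mutants, and Ifngr1 was 37.3 ± 3.49 and 36.7 ± 4.42 FPKM. Aim2 is added here after its values were seen. Aim2, a sensor of cytosolic DNA, was 27.7 ± 8.67 and 45.3 ± 4.19 CPM (log2 fold change 0.72 ± 0.22, edgeR adjusted p = 0.0563).

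Of 47 other interferon-induced genes tested, 4 rose (8.51%, against 6.11% of all genes) and 0 fell (4.17% of all genes), with a median log2 fold change of 0.21. Ifitm3, a membrane protein that blocks virus entry, had 56.7, 63.4 and 75.6 CPM in controls against 115 and 128 CPM in mutants (0.90 ± 0.14 on the log2 scale, edgeR adjusted p = 0.00143). Both mutants exceeded every control, and the rise passed without any 1 of the 5 libraries. Ifi27, listed under its older symbol Ifi27l1, rose from 32.5 ± 2.33 to 50.9 ± 0.509 CPM, and its relative Ifi27l2b from 200.2 ± 27.6 to 311 ± 16.6 CPM. Phf11d, listed as D14Ertd668e, rose from 2.05 ± 0.228 to 5.31 ± 0.629 CPM. Without control 1, mutant 4 or mutant 6 the rises of Ifi27, Ifi27l2b and Phf11d were no longer called. The highest genes of the list that were not called were Lgals3bp (233 ± 15.8 and 191 ± 16.1 FPKM) and Ifi30 (169 ± 20.3 and 151 ± 16.1 FPKM).

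Of 12 genes of class I antigen presentation, which displays peptides from inside the cell to T cells, 5 rose (41.7%, against 6.11% of all genes) and 0 fell (4.17% of all genes), with a median log2 fold change of 0.44. H2-D1, a class I heavy chain, had 197, 229 and 198 CPM in controls against 389 and 311 CPM in mutants (0.75 ± 0.14 on the log2 scale, edgeR adjusted p = 0.00419). Psmb8, an immunoproteasome subunit that cuts peptides for class I, had 36.1, 44.6 and 30.3 CPM against 67.4 and 63.3 CPM (0.82 ± 0.17, edgeR adjusted p = 0.00649). In both genes the mutants lay above all controls, and control 3 was not the highest control. Psmb9, its partner subunit, rose from 31.6 ± 3.02 to 47.6 ± 3.61 CPM. The peptide transporter subunit Tap2 rose from 4.28 ± 0.245 to 9.70 ± 4.55 CPM and its bridge to class I, Tapbp, from 75.8 ± 4.82 to 105 ± 16.2 CPM. With mutant 6 alone 0 of the 12 were called, in a fit that called 2.67% of all genes higher, and with mutant 4 alone 3 were. The most abundant members, B2m and H2-K1, were not called, though by CPM both mutants lay above all controls in each (21.7% of all genes share that position). B2m, the light chain, was 933 ± 145 and 1166 ± 67.5 FPKM (log2 fold change 0.36 ± 0.15, edgeR adjusted p = 0.148). H2-K1 was 243 ± 25.4 and 316 ± 12.2 FPKM (log2 fold change 0.41 ± 0.13, edgeR adjusted p = 0.0732). H2-D1 and H2-K1 are similar in sequence and may share reads.

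**Figure D4:**
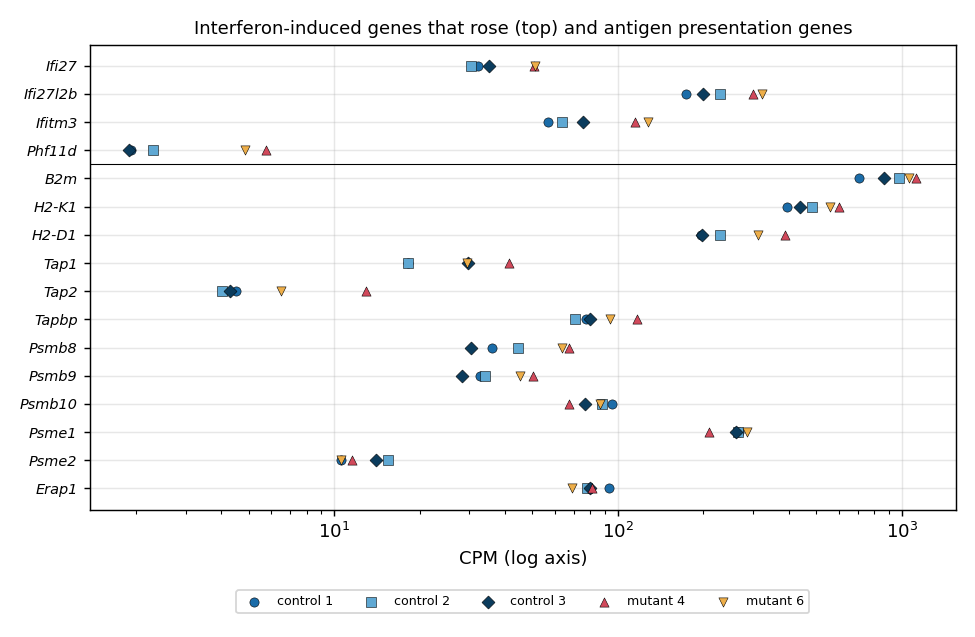
CPM in the 5 libraries, on a log axis, of the 4 interferon-induced genes that rose (top block) and the 12 class I antigen presentation genes (lower block). Both mutants lie right of all controls for the 4 genes of the top block and for B2m, H2-K1, H2-D1, Tap2, Tapbp, Psmb8 and Psmb9. The groups overlap for Tap1, Psmb10, Psme1, Psme2 and Erap1.

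Markers of other cells moved in the same libraries. Of 11 mesenchymal markers 7 rose (63.6%, against 6.11% of all genes), namely Col1a1, Col1a2, Col3a1, Lum, Pdgfra, Acta2 and Myh11. All 11 had both mutants above all controls, a position that 21.7% of all genes share. Of 14 immune markers tested 2 rose (14.3%), the macrophage genes Csf1r (57.5 ± 14.7 and 167 ± 10.4 CPM) and Aif1 (4.71 ± 1.65 and 10.1 ± 1.48 CPM). The other 12 were not called, among them Cd68 (log2 fold change 0.58 ± 0.24), Emr1 (0.37 ± 0.31) and Lyz2 (0.26 ± 0.19). The log2 fold change was positive in 12 of the 14 and negative in 2, the lowest at -0.52. The B cell marker Cd79a had 0 counts in all libraries but control 1. Of 8 endothelial markers 0 were called, with 1 at an edgeR unadjusted p under 0.05 (12.5%, against 25.6% of all genes). Their part in the rises of the antigen presentation and interferon-induced genes was not tested.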

How the data were processed

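Deposited by the authors were raw counts of reads for each RefSeq transcript and, separately, FPKM values, both as 28644 rows for 22869 symbols, with 1 column per library and 0 columns without a sample. Per the submitters' processing notes, build mm9 and edgeR were used; no aligner, counter or counting strand is named by the labels. Counts were analysed by edgeR 4.0.16 under R 4.3.3, using its quasi-likelihood F-test (default low-count filter, TMM, no covariate, 3 residual degrees of freedom), with Benjamini-Hochberg adjustment over 19353 rows. Each gene was read from its row with the highest mean count; 41 spreadsheet dates were renamed by transcript. The SE was taken from F (the size of the log2 fold change over the root of F), and 95% intervals use the moderated t distribution. The test was checked on simulated counts. Alternatives used DESeq2 1.42.0, limma 3.58.1, the edgeR exact test, other scalings and filters, the deposited FPKM (pseudocount 1 or 0.1) and each library left out in turn. Floors of 3 counts cover counting error only, since amplified reads are not independent molecules. The members and gene lists were chosen with earlier results of these data known. All members are named, with every called gene of the other lists and, of the pathway lists, the 2 highest by FPKM that were not called. The naming rule asked for counts per library; for many members the text prints CPM instead, a change made in writing because depths differ.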

Additional observations from a re-analysis of the deposited data

How the results depend on the processing

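No paired analysis was possible because controls (1, 2, 3) and mutants (4, 6) share no replicate number. Of 525 values of members under 16 alternatives, 462 kept direction and side of the threshold, 11 passed newly, 2 (Mx2) no longer passed and 50 changed sign; the cause was not tested. Members called higher were 0 as reported, 2 with no filter, 1 with the exact test and 0 to 2 with a library left out (2 without control 3 or mutant 6). Members called lower were 1, then 3, 2, 0 on FPKM with a mean of at least 1, and 0 to 2 with a library left out (0 without mutant 6). Over all genes 891 were higher and 608 lower, against 408 to 1057 and 170 to 645 with a library left out (537 and 251 without control 1, 408 and 170 without mutant 4, 545 and 210 without mutant 6). With FPKM they were 335, 341 and 258 higher and 131, 165 and 131 lower (pseudocount 1, 0.1, mean of at least 1), and 935 were lower with no filter. Other sensing and signalling genes gave 1 higher with upper-quartile scaling, no filter, DESeq2, the exact test and voom, 1 lower with no filter and the exact test, and 0 to 1 either way with a library left out. Other interferon-induced genes called higher were 9 with no filter, 7 with the exact test, 2, 2 and 1 on the 3 FPKM settings and 1 to 6 with a library left out; 2 were lower with no filter and 0 to 1 with a library left out. Antigen presentation genes called higher were 1, 1 and 0 on FPKM and 0 to 5 with a library left out.

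Log2 fold changes that changed sign with a library left out ranged from -0.036 to 0.17 (Ddx58), -0.099 to 0.43 (Ifih1), -0.34 to 0.13 (Dhx58), -0.13 to 0.096 (Eif2ak2), -0.37 to 0.16 (Irf3), -0.049 to 0.25 (Irf7), -0.092 to 0.27 (Irf9), -1.41 to 0.77 (Ifit2), -1.10 to 0.080 (Ifit3), -0.41 to 0.94 (Ifi44), -0.69 to 0.25 (Oas1a), -1.11 to 0.46 (Oas2), -1.47 to 0.80 (Oas3), -0.46 to 0.54 (Oasl2), -0.54 to 0.83 (Rsad2) and -0.68 to 0.90 (Usp18). On FPKM with pseudocount 1, for all tested rows and for a mean of at least 1 alike, they were 0.030 (Eif2ak2), 0.13 (Irf3), -0.078 (Irf9), -0.11 (Ifnar1) and -0.055 (Ifit2), and with pseudocount 0.1 they were 0.031, 0.14, -0.080, -0.12 and -0.23. With voom Ifit2 was -0.27 and Oas3 -0.18. None of these 17 genes was called under any of the 16 alternatives. The 16 other members kept their sign throughout. With 2 mutants, 18 of 33 intervals exclude a change beyond 1 log2 unit either way, but 4 of 16 among the effectors.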

Other observations

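Genes that clear stray nucleic acid, which keep self RNA and DNA from reaching the sensors, did not pass the test in either direction. Of 10 such genes, 0 were called by edgeR's quasi-likelihood test (10.3% of all genes), and 2 had an unadjusted p under 0.05 (25.6% of all genes). The log2 fold change was negative in 8 of the 10 (median -0.27) and in 7398 of all 14572 genes tested. Rnaseh2c, a subunit of the enzyme that removes RNA from DNA hybrids, had 22.2, 26.2 and 22.8 CPM in controls and 15.3 and 17.9 CPM in mutants. Both mutants lay below all controls, a position that 21.8% of all genes share. Its log2 fold change was -0.51 ± 0.18 (edgeR adjusted p = 0.0943). Rnaseh2b of the same enzyme was 39.9 ± 3.37 and 34.8 ± 6.31 CPM. DNA methylation acts on CpG dinucleotides, and their number in the 300-base promoter windows differed by role: the median was 4 over 15 effector windows (1 to 11), 17.5 over 18 windows of the sensors, adaptors, transcription factors and receptors (1 to 43), and 7 over all 32851 windows. These counts describe the reference sequence, and methylation was not measured here.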
